A study of Mus musculus with 8 samples.

Results

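Crisp1, Lcn5, Adam7 and Wfdc15b are 4 genes of the epididymal epithelium whose transcripts were found in fat of male mice. They were chosen from the measured values, as genes high in both pools of rsl males and in the first but not the second pool of wild type males, and every probe set that the deposited annotation gives to these symbols was taken. Each gene has 1 probe set, so the members are 4 of 45037 probe sets and 4 of 20743 named genes. The choice sets no numerical threshold, and the male values below are therefore a description without a test.

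The RNA came from abdominal white adipose tissue of adult mice, and the labels name no single fat depot. Wild type mice were of the strain B10.D2 (Rsl/Rsl) and rsl mice of the strain B10.D2.PL (rsl/rsl), so effects of the rsl alleles and of other differences between the strains cannot be told apart. No treatment is given, and all mice ate standard chow. Each sex of each strain had 2 pools, each of RNA from 5 mice in equal amounts, and it is not stated whether both pools of a group drew on the same mice. The 8 Affymetrix 430 2.0 PM arrays gave a signal per probe set on the log2 scale (RMA, robust multi-array average), where 1 unit is a doubling. The background of an array, taken as the brightest of its non-specific control probe sets, lay between 3.73 and 4.01.

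The epididymis is the duct in which sperm mature after they leave the testis. Its epithelium secretes a different mixture of proteins in each segment, and androgens maintain much of that secretion. Crisp1 codes for a cysteine-rich secretory protein that coats maturing sperm, Lcn5 for a lipocalin that carries retinoic acid, and Adam7 for a membrane protein of the ADAM family that lacks the protease active site and passes to sperm. Wfdc15b, also called SWAM1, codes for a small secreted protein with a whey acidic protein domain and antibacterial activity. The 4 proteins come from different families, and the genes lie on chromosomes 17 (Crisp1), 14 (Adam7) and 2 (Lcn5 and Wfdc15b), the last pair in separate gene clusters.

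Because the 4 genes were chosen for a shared course across the male pools, their start regions are shown. RefSeq promoters of the assembly GRCm38.p6 (250 bases before to 50 after the start) were matched for Crisp1, Lcn5 and Wfdc15b. Each is printed 5′ to 3′ on the strand of the gene, with capitals at matches on either strand to TATAAA, the core of a TATA box, or to AGAACA, a half-site of the steroid hormone response element.
Crisp1, chr17:40319158-40319457, minus strand: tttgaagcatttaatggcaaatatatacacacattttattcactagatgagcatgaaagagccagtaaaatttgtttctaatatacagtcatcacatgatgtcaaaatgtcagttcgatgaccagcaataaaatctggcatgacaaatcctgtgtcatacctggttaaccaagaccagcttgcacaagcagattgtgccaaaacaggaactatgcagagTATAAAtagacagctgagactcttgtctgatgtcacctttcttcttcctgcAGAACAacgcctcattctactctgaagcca
Lcn5, chr2:25657702-25658001, plus strand: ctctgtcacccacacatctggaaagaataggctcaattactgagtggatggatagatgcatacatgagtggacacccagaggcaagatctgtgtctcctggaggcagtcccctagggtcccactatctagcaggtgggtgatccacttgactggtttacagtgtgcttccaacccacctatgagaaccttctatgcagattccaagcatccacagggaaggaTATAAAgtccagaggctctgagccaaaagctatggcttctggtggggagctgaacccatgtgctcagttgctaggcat
Wfdc15b, chr2:164221614-164221913, minus strand: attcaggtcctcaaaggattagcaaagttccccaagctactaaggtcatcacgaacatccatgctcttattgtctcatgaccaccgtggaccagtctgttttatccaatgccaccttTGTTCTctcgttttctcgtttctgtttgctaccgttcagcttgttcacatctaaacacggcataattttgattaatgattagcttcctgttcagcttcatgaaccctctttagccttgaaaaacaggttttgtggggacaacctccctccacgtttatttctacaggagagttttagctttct
TATAAA begins 31 bases before the start of Crisp1 and 28 before that of Lcn5, and has no match in the window of Wfdc15b. The half-site begins 21 bases after the start of Crisp1 and, as TGTTCT, 133 before that of Wfdc15b, with no match in Lcn5. Neither of these motifs was thus found in all 3 windows. Of the 32851 promoters of that length in the table, 13.6% hold TATAAA and 19% the half-site, so either match is frequent. The full element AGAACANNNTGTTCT occurs in 3 of the 32851 promoters and in none of these 3 genes.

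Crisp1 had a signal of 12.60 in wild type male 1 and 7.14 in wild type male 2. The rsl male pools had 12.40 and 12.25, a mean of 12.33 ± 0.11 (SD, n = 2). The 4 female pools lay between 3.03 and 3.74, and all of them were below the background of their array. Wild type male 1 was thus the brightest pool, 0.27 above the rsl mean where the rsl pools differed by 0.15, and wild type male 2 lay between the other males and the females. Crisp1 was 44.2-fold higher in the first wild type male pool than in the second. Against the female background the rsl males were at least 349-fold higher, wild type male 1 at least 421-fold and wild type male 2 at least 9.54-fold.

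Lcn5 reached 12.59 in wild type male 1, 6.04 in wild type male 2, and in the rsl pools 13.02 and 12.71. The female pools lay between 3.86 and 4.67. The gap between the wild type male pools was the widest of the 4 genes, 6.55 units or 93.5-fold. Wild type male 1 was 0.28 below the rsl male mean of 12.86 ± 0.22 (SD, n = 2), a gap smaller than that of 0.31 between the rsl pools themselves. The brightest probe set of any array had a signal of 13.48, so these high Lcn5 values lie near the top of the scale. Those of Crisp1, at 12.25 to 12.60, and of Adam7 in rsl males lie near it too, and compression there was not tested.

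Adam7 gave 11.04 in wild type male 1 and 5.26 in wild type male 2, against 12.34 and 12.04 in rsl males. Female pools ranged from 3.98 to 4.31. Wild type male 1 stood further from the rsl pools for Adam7 than for the other 3 genes, at 1.15 below their mean of 12.19 ± 0.21 (SD, n = 2), or 45.1% of their level on the linear scale. That gap is more than the 0.30 between the rsl pools.

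Wfdc15b, the dimmest of the 4 in rsl males, had 11.27 in wild type male 1 and 5.45 in wild type male 2. The rsl male pools had 11.09 and 10.56 (mean 10.83 ± 0.38, SD, n = 2). Female pools lay between 4.28 and 5.12. Wild type male 1 was 0.44 above the rsl mean, or 135% of it, which is less than the 0.53 between the rsl pools.

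**Figure D1:**
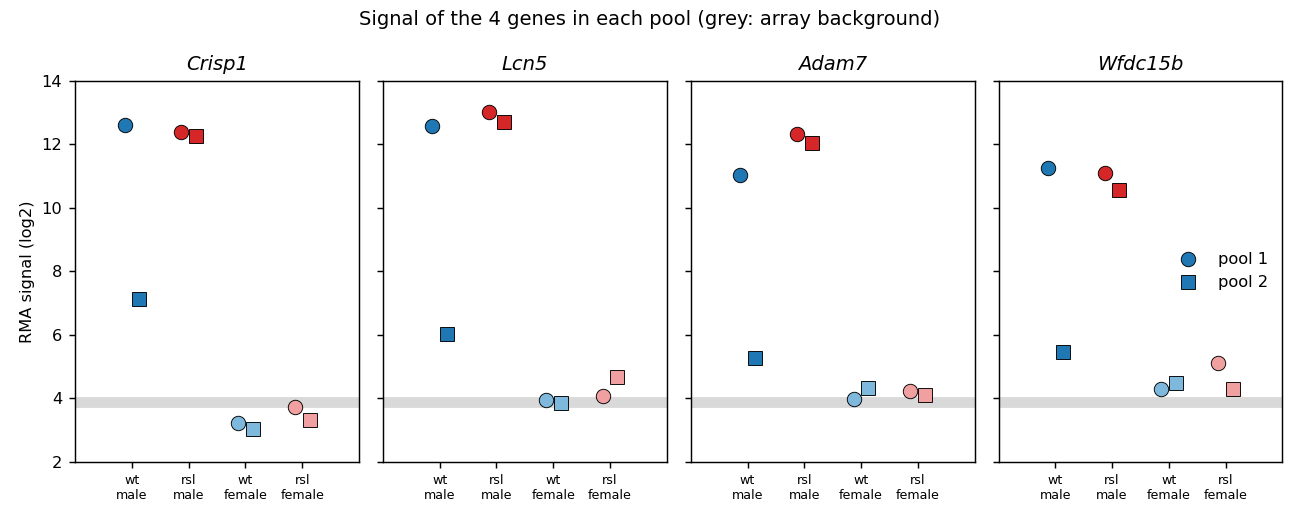
RMA signal on the log2 scale of Crisp1, Lcn5, Adam7 and Wfdc15b in each of the 8 pools, with circles for pool 1 and squares for pool 2 and a grey band for the range of array backgrounds (3.73 to 4.01). Wild type male 1 lies with the rsl males, wild type male 2 lies 5.47 to 6.55 units lower, and the females lie between 3.03 and 5.12.

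The second wild type male pool was low but not without the transcripts of Crisp1, Lcn5 and Adam7. For Wfdc15b this pool did not clearly exceed the females. Its signal exceeded the background of the array by 3.41 for Crisp1, 2.31 for Lcn5, 1.53 for Adam7 and 1.72 for Wfdc15b. It exceeded the highest female pool by 3.40 for Crisp1, 1.37 for Lcn5 and 0.95 for Adam7. For Wfdc15b it did so by 0.33, which is less than the SD of 0.57 between the rsl female pools. On the linear scale wild type male 2 held 2.73% of the rsl male level of Crisp1, 0.884% of Lcn5, 0.817% of Adam7 and 2.40% of Wfdc15b, values that include background signal. In bulk RNA, fewer cells of a type and less RNA per cell cannot be told apart.

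The 2 rsl male pools differed little for these genes, by 0.15 to 0.53 units, with pool 1 above pool 2 for all 4. Pool 1 was also above pool 2 for 87 of the 89 probe sets that lay at least 4 units above every female pool in both rsl males. Such probe sets were 0.198% of those measured, and all 4 members are among them. How many of all probe sets were higher in rsl male 1 than in rsl male 2 was not counted. The medians of the 2 arrays were 4.58 and 4.57. The mean difference between rsl and wild type males was 2.46 for Crisp1, 3.55 for Lcn5, 4.04 for Adam7 and 2.47 for Wfdc15b, with an SD between the wild type pools of 3.86 to 4.63. These differences hung on 1 pool, and for Crisp1 and Wfdc15b so did their direction. Without wild type male 1 the differences were 5.19, 6.82, 6.94 and 5.38, and without wild type male 2 they were -0.27, 0.28, 1.15 and -0.44.

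A gap of at least 4 units in favour of wild type male 1 was rare. It was found for 44 probe sets, or 0.0977% of all, the 4 members included by choice, while 0 probe sets had such a gap in favour of wild type male 2 and 0 in favour of rsl male 1 over rsl male 2. Ranked by this gap among all named genes, Lcn5 stood at 7, Wfdc15b at 16, Adam7 at 17 and Crisp1 at 24. The top 10 held Serpina1f, a serpin, at 11.35 and 3.69 in wild type males 1 and 2. Spint4, a Kunitz-type protease inhibitor, had 11.68 and 4.16, Spink10, a Kazal-type one, 10.76 and 3.65, and Ceacam10, a cell adhesion family member, 10.17 and 3.33. The others beside Lcn5 were Spink8, BC048679, C4bp, a complement inhibitor, Epp13 and Glb1l3.

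Of the 89 probe sets high in both rsl males, 56 were at least 4 units above every female in wild type male 1 as well, and 6 in wild type male 2. Singled out after their values were seen, those 6 belong to the Y-linked genes Eif2s3y and Ddx3y, to the sperm protamine gene Prm1 and to Cuzd1. In wild type male 1, 14 of the 89 were less than 1 unit above the females, and 5 of these 14 were at least 1 unit above them in wild type male 2. The 89 probe sets thus fell on both sides of equality between the wild type pools, with 18 higher in wild type male 2 and the 4 members all far above it.

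**Figure D2:**
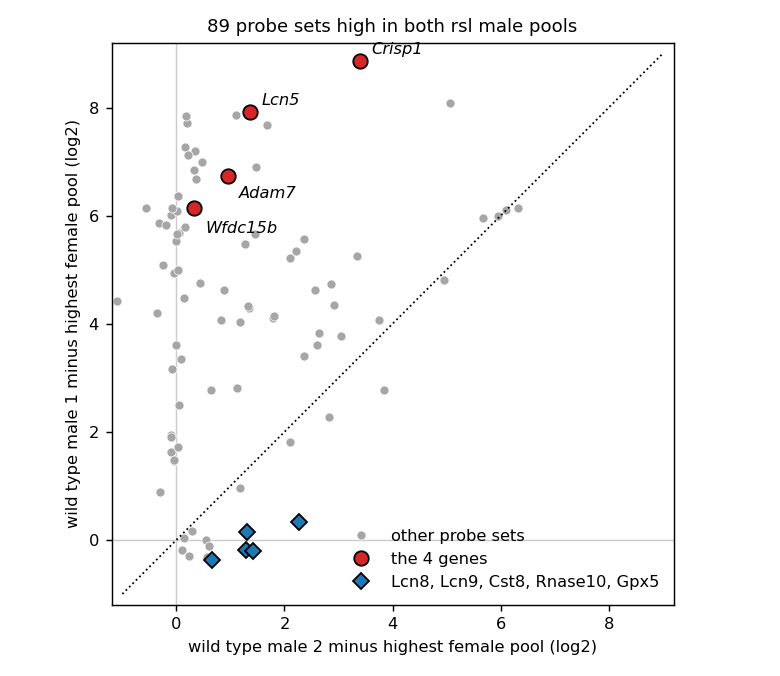
Each point is 1 of the 89 probe sets at least 4 log2 units above every female pool in both rsl males, placed by its signal in wild type male 2 (x axis) and wild type male 1 (y axis) minus that of the highest female pool, with equality as a dotted line. The 4 genes (red) lie far above the line, Crisp1 furthest to the right of the 4 at 3.40, and Lcn8, Lcn9, Cst8, Rnase10 and Gpx5 (blue diamonds) lie below the line.

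The 10 genes whose values over the 8 arrays were most like the mean of the 4 were found by Pearson's r, over the 171 other genes with a range of at least 4 units. The arrays fall into high and low pools, so r mostly reflects that split and is given without a p. Spink8, a Kazal-type protease inhibitor, came first (r = 0.998), with 12.35 in wild type male 1, 5.58 in wild type male 2, against 12.36 and 12.02 in the rsl pools. The beta-defensins Defb42 (0.998), Defb29 (0.998) and Defb21 (0.991) followed a like course, with 11.57, 10.48 and 10.23 in wild type male 1 and 5.56, 5.06 and 3.92 in wild type male 2. The rest were Asb11, Epp13, Tmem30b, a subunit of lipid flippases, Cad, an enzyme of pyrimidine synthesis, 1500011B03Rik and Serpina1f. Cad lay between 6.51 and 6.60 in females and at 7.97 in wild type male 2, above background in all of them. Between pairs of the 4 members r ran from 0.974 (Crisp1 and Adam7) to 0.994 (Lcn5 and Adam7). They were chosen for a shared course over the male pools, so a high r follows from the choice.

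Other epididymal genes did not all follow the 4. Of a list of 30, 18 were measured, and 16 of these were at least 4 units above every female in both rsl males. At least 4 units separated wild type male 1 from wild type male 2 for 5 of the 18, and the median gap was -0.19, against 5.80 for the 4 members and -0.02 for all named genes. The mean signal of the 18 was still higher in wild type male 1, at 6.004 against 4.55 in wild type male 2. Mean and median thus differed in direction for this list. The 4 with the widest gap were Spint4, Spink8, Crisp4 and Spink12, and Crisp4 had 9.22 in wild type male 1 and 3.88 in wild type male 2. At least 1 unit higher in wild type male 1 were 7 of the 18, beside 423 of all 45037 probe sets. In the opposite direction, 5 of the 18 were at least 1 unit higher in wild type male 2, beside 105 of all probe sets. Their gaps (wild type male 1 minus 2) ran from -1.95 to -1.03 units, short of 4.

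Those 5 genes, named after their values were seen, were nearly absent from the pool in which the 4 members were high. Lcn8, a lipocalin gene, had 3.84 in wild type male 1 and 5.45 in wild type male 2, with 12.84 and 12.19 in rsl males. Lcn9 had 4.08 and 5.56 in the wild type pools, Cst8, a cystatin, 4.32 and 5.47, and Rnase10, a ribonuclease A family member, 3.99 and 5.02. Lcn8, Lcn9 and Rnase10 were within the range of the females, or below it, in wild type male 1. Gpx5, a secreted glutathione peroxidase, had 5.93 and 7.87, against 13.09 and 12.94 in the rsl pools and 5.47 to 5.60 in females. In wild type male 2 these 5 genes stood at 0.717% (Rnase10) to 2.83% (Gpx5) of their rsl male level, beside 0.817% to 2.73% for the 4 members. In wild type male 1 the 5 stood at 0.244% to 0.735%, and the 4 members at 45.1% to 135%. The low percentages include background signal in both wild type pools. Lcn8, Rnase10 and Lcn9 lay only 0.03, 0.18 and 0.28 above background in wild type male 1. Lypd8, a further gene with a high rsl male level, was at 3.60 and 4.13 in the wild type pools, near background.

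The neighbours of each member on its chromosome were taken in RefSeq order, 6 measured protein-coding genes on either side. Around Lcn5, the next gene on one side, Lcn8, and the lipocalin gene Lcn9 were high in rsl males but not in wild type male 1. Obp2a, next on the other side, had 6.61 and 4.73 in rsl males against 3.50 and 3.31 in the wild type pools. Lcn3 had 4.02 to 4.18 in males and 3.95 to 4.23 in females, near background, and Lcn11 was below background in each. Around Adam7, its neighbour Adam28 had 10.64 and 9.36 in rsl males but 3.54 and 3.65 in wild type males, both below background. Adamdec1, which lies between them, had 5.76 and 4.70 in rsl males and was below background in both wild type male pools. Stc1, the stanniocalcin hormone gene and the third on one side, had 6.27 in wild type male 1 and 4.20 in wild type male 2, while the rsl pools had 5.74 and 5.23 and the females 4.33 to 4.83.

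None of the neighbours taken for Crisp1 and Wfdc15b differed by 1 unit or more between the wild type male pools. Crisp3, beside Crisp1, was below background in every pool, at 2.83 to 3.18. Crisp2, on the other side, codes for a sperm protein of the testis and had 6.20 and 6.26 (wild type males), 5.48 and 3.94 (rsl males) and at most 3.71 (females), an order unlike that of Crisp1. Next to Wfdc15b, Wfdc15a lay between 4.47 and 4.97 in all pools. Svs2, Svs3a, Svs4, Svs5 and Svs6, genes of seminal vesicle secretion that follow Wfdc15b on the chromosome, lay at 2.93 to 3.95, near or below background.

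**Figure D3:**
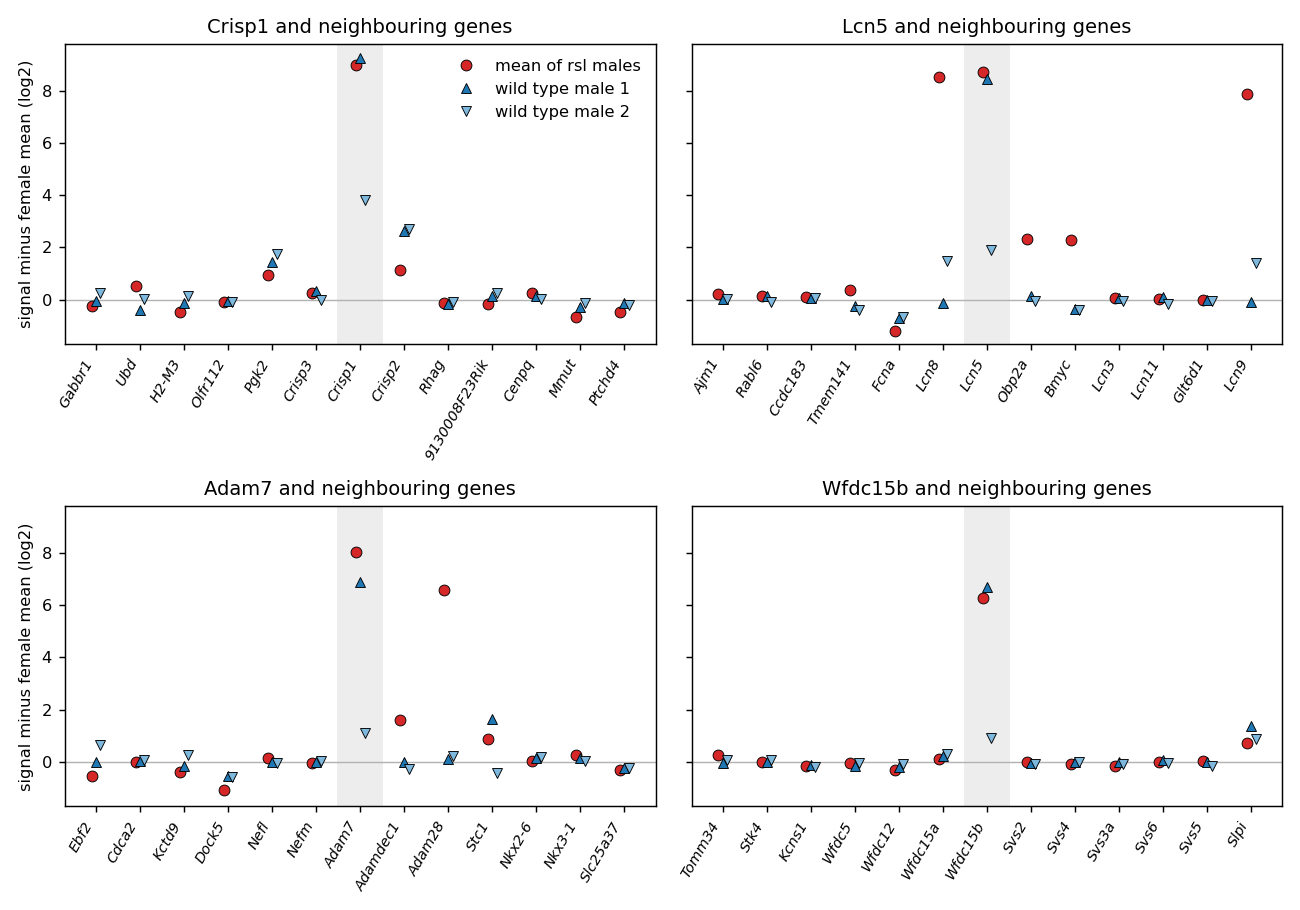
Signal minus the female mean (log2) for each of the 4 genes (shaded) and the 6 measured protein-coding genes on either side in RefSeq order, for the mean of the rsl males (circles), wild type male 1 (upward triangles) and wild type male 2 (downward triangles). Lcn8, Lcn9 and Adam28 are high in rsl males and near the female mean in wild type male 1, while Lcn5 and Adam7 are high in both.

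Within the protein families, most measured relatives lacked the gap of at least 4 units that chosen members had. Over all named genes, 38 of 20743 had it, and the family counts here include the members. Of 16 measured lipocalin genes, 1 (Lcn5) had a gap of 4 units or more between wild type males 1 and 2, and Lcn12 was nearest with 7.41 and 3.79. Of 13 measured genes with whey acidic protein domains, 3 had such a gap. They were Wfdc15b, Wfdc6a with 10.16 and 4.51, and Eppin, a protease inhibitor that coats sperm, with 8.96 and 3.97. Among 12 measured genes of the CRISP family they were Crisp1 and Crisp4, and among 27 of the ADAM family Adam7 alone.

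Markers of epithelium moved with the 4 genes but over a smaller range. The 13 measured epithelial genes had a mean of 7.69 in wild type male 1 against 6.44 in wild type male 2, with 9.02 and 7.997 for the rsl pools and 5.56 to 5.98 for the females. Cldn3, a tight junction protein, had 8.84 and 6.26 in wild type males, and Cdh1, the epithelial cadherin, 8.38 and 6.31, with 3.04 to 4.59 in females. At least 1 unit separated the wild type pools for 8 of the 13, all higher in pool 1. Over all 45037 probe sets, 423 were at least 1 unit higher in wild type male 1 and 105 in wild type male 2. All 13 were above background in every male pool, and 11 to 13 of them in the female pools. Of 6 measured genes of clear cells, 2 were at least 1 unit higher in wild type male 1 (Aqp9 and Foxi1), and of 5 of basal cells 2 were (Trp63 and Krt14). The part of these cell types in the levels of the 4 genes was not tested.

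Sperm transcripts did not separate the wild type pools. The 12 genes of spermatids and sperm had a mean of 6.31 in wild type male 1 and of 6.37 in wild type male 2, while the rsl pools had 6.11 and 4.73 and the females 3.74 to 3.78, with a median gap of 0.02 between the wild type pools. All 12 were above background in both wild type male pools and in rsl male 1, 7 in rsl male 2 and 3 to 5 in the females. The 9 measured genes of seminal vesicle and prostate averaged 3.25 to 3.48 in males and 3.28 to 3.37 in females, and at most 2 of them were above background in any pool.

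Adipocyte transcripts were bright in all pools and lowest in rsl male 1. The 11 measured adipocyte genes had means of 11.99 and 12.14 (wild type males), 11.45 and 11.98 (rsl males) and 12.05 to 12.12 (females), all of them above background in every pool. The labels give liver RNA in one field, and the 8 hepatocyte genes averaged 4.04 to 6.40 in males and 4.31 to 4.48 in females. Between the wild type males, hepatocyte genes went the other way from the members, with 5.36 in pool 1 and 6.40 in pool 2. At least 1 unit higher in pool 2 were 5 of the 8, beside 105 of all 45037 probe sets. Macrophage genes had means of 9.38 and 9.68 (wild type males), 8.85 and 9.16 (rsl males) and 9.29 to 9.69 (females), and skeletal muscle genes 4.22 to 4.53 in males and 5.65 to 8.05 in females. The excess of the 3′ over the 5′ control probe set, a sign of RNA integrity, was 0.68 (Gapdh) and 1.06 (actin) in wild type male 1, and 0.71 and 0.95 in wild type male 2, and its part in the gap between these pools was not tested. The rsl pools had 0.79 and 1.03 for Gapdh, with 1.16 and 1.20 for actin, above both wild type males, and its part in the strain difference was not tested either.

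**Figure D4:**
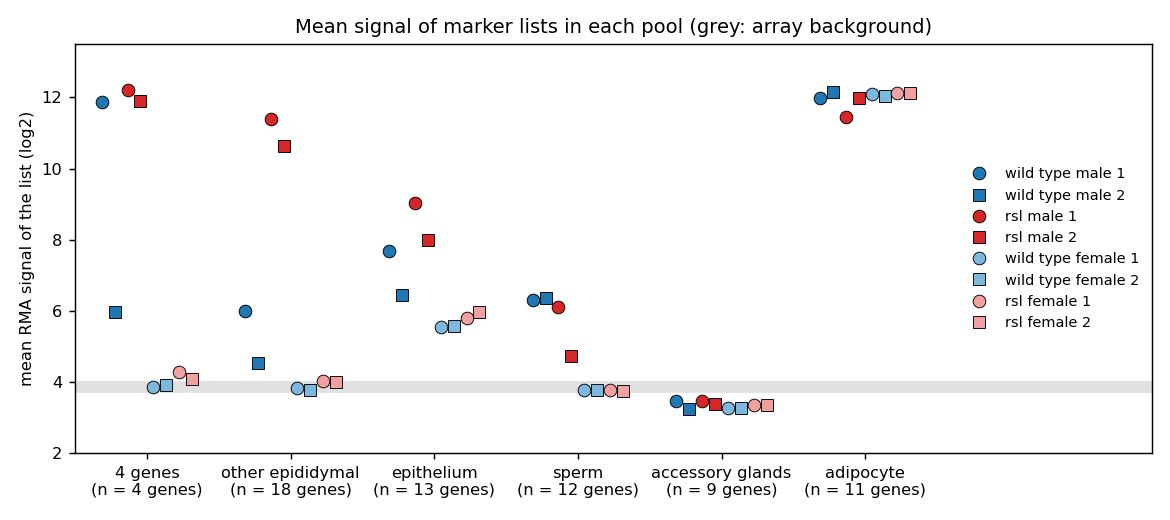
Mean RMA signal (log2) of the 4 genes and of lists of marker genes in each of the 8 pools, with a grey band for the range of array backgrounds. The 4 genes and the epithelial list are higher in wild type male 1 than in wild type male 2, while sperm genes (6.31 and 6.37) and adipocyte genes (11.99 and 12.14) are nearly level.

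The androgen list held 15 measured genes that code for steroid receptors and factors that act with them, enzymes of steroid conversion or androgen targets. Of these, 1 was at least 1 unit higher in wild type male 1, beside 423 of all 45037 probe sets. It was Srd5a2, an enzyme that makes dihydrotestosterone, with 6.03 and 3.82 in wild type males 1 and 2. The rsl pools had 5.70 and 5.08 and the females 3.49 to 3.79.

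In females, whose values played no part in the choice, no difference between the strains was detected for the 4 genes. Crisp1 was 3.12 ± 0.13 (SD, n = 2) in wild type and 3.52 ± 0.30 in rsl females, below background in both. Lcn5 was 3.91 ± 0.06 and 4.36 ± 0.43, Adam7 4.15 ± 0.23 and 4.16 ± 0.10, and Wfdc15b 4.38 ± 0.14 and 4.71 ± 0.57. A limma model of all 8 arrays called 0 of the 4, with adjusted p from 0.953 to 0.998 and 0 at an unadjusted p under 0.05, against 94 probe sets (0.209%) called over the whole table. The SE was 1.47 to 1.76, since the spread is shared with the wild type male pools. The choice of the genes made that spread large, so this model could hardly call any of the 4. The 95% interval for Lcn5 ran from -3.70 to 4.62. Without either wild type male pool the SE for Crisp1 was 0.15 and the adjusted p 0.432, and a model of the 4 female arrays alone gave 0.14 and 0.164, with 0.201 for Lcn5, 0.955 for Adam7 and 0.474 for Wfdc15b.

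Among their relatives, 1 of 16 lipocalin genes was higher and 1 of 13 genes with a whey acidic protein domain lower in rsl females in the same limma test, beside 0.209% of all probe sets called. At an unadjusted p under 0.05 there were 1 of the 16 and 7 of the 13, beside 4952 of all 45037 probe sets. Lcn2, an iron-siderophore binding lipocalin, was 3.52 ± 0.18 (SD, n = 2) in wild type and 7.30 ± 0.34 in rsl females, at least 10.95-fold higher (adjusted p = 0.00361). Unlike Lcn5, it was at 9.82 and 10.37 in wild type males 1 and 2. Wfdc21 was lower by 1.18 ± 0.12 (SE, adjusted p = 0.0203) and Fkbp5, a steroid-induced chaperone of the androgen list, higher by 1.63 ± 0.20 (adjusted p = 0.0417). In the same test 0 of the 18 other epididymal genes were called, with 0 at an unadjusted p under 0.05. One of them, Spink12, was still 3.80 ± 0.004 (SD, n = 2) in wild type and 5.94 ± 0.17 in rsl females. Its difference of 2.14 had an SE of 1.43, with a spread shared with the wild type males, at 9.44 and 4.17.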

How the data were processed

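Total RNA of adult mouse fat was measured in 8 pools of 5 mice, 2 for each sex and strain. Per the labels' protocols, biotinylated cRNA was made from 400 ng of RNA. As deposited, each probe set has a log2 signal that the authors made with RMA per the submitters' processing notes, with the version not given in the sources used here. The other unit is annotation text: the deposited annotation table gave gene symbols, and its 8 value columns, whose headings match no sample label, were not used.

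Of 45141 probe sets, 104 controls were set aside. Symbols were brought up to date through RefSeq (GRCm38.p6), which left 38367 probe sets naming 20743 genes (34522 by accession, 1101 by symbol or synonym, 2744 by the deposited symbol). A gene was represented by its brightest probe set. Background was the highest of 22 non-specific controls (GC counts 3 to 24; 25 was left out). Arrays give no read depth, and their number limits the precision.

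limma 3.58.1 in R 4.3.3 was fitted with 1 mean per group, all 8 arrays and Benjamini-Hochberg adjustment over 45037 probe sets (threshold 0.05, 4 residual and 3 prior degrees of freedom), and was tested on simulated data. P-values measure only the spread between pools. The members and the 15 gene lists were chosen with earlier results of these data known. Named are all members, list genes called in females, up to 4 genes of a described list with the widest wild type gap and 4 with the highest rsl male excess, the 10 genes most like the members and the 10 with the widest gap. Chromosomal neighbours were added after the values were seen, and 1 gene of the lists is not reported here. Alternatives were other normalizations, a filter, an intensity trend, a replicate block, the female arrays alone and each array left out.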

Additional observations from a re-analysis of the deposited data

How the results depend on the processing

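The gap between wild type males 1 and 2 was 5.54 (Crisp1), 6.62 (Lcn5), 5.83 (Adam7) and 5.86 (Wfdc15b) under quantile normalization. Under median centring it was 5.46, 6.54, 5.78 and 5.81, beside 5.47, 6.55, 5.79 and 5.82 as deposited. Under both, wild type male 1 minus the rsl male mean moved by less than the SD between the rsl pools. The mean of all probe sets of a gene could not differ, since each of the 4 has 1. Counts of probe sets with gaps of 4 units stayed within 1.5 times. With arrays left out one at a time, the rsl minus wild type difference in males ran from -0.27 to 5.19 for Crisp1, from 0.28 to 6.82 for Lcn5, from 1.15 to 6.94 for Adam7 and from -0.44 to 5.38 for Wfdc15b, lowest without the second and highest without the first wild type male pool. The female differences never passed the threshold. Near 0, that of Adam7 changed sign under quantile normalization (-0.0074) and ran from -0.15 to 0.18 with arrays left out, and that of Wfdc15b ran from -0.075 (without rsl female 1) to 0.74. The 94 probe sets called in females became 2009 with the female arrays alone and 9 to 460 with arrays left out, lowest without wild type female 1 and highest without either rsl male. The lone array of a reduced group was assumed to vary like the others. The replicate number as a block gave 71 calls and 0.40 ± 1.29 (SE) for Crisp1 in females. Deviations of same-numbered pools correlated across probe sets at 0.346 between rsl and wild type males. For the other pairs of groups they correlated at -0.048 to 0.115. The numbers were not taken as pairs, and a shared effect of the number in males was not tested. Signals of Crisp1 in females, at or below background, carry no order.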

Other observations

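The 38 genes with a gap of at least 4 units between the wild type male pools did not all stand in the same relation to the rsl males. In wild type male 1, 16 of them, Crisp1 and Wfdc15b included, were brighter than in both rsl pools, 8 lay between the rsl pools, and 14, Lcn5 and Adam7 included, were dimmer than in both. The examples here were chosen after their values were seen. Cwh43, a gene of lipid anchor remodelling in yeast, had 9.40 in wild type male 1 and 3.86 in wild type male 2, against 7.74 and 7.54 in the rsl pools. Ly6f, of the Ly6 family of anchored surface proteins, had 9.76 and 3.75 in the wild type pools and 8.42 and 8.21 in rsl males, and Npy, the neuropeptide Y gene, had 10.28 and 4.66 against 9.49 and 9.27. At the other end, Muc15, a membrane mucin, had 9.34 in wild type male 1 and 3.70 in wild type male 2, against 11.96 and 10.92 in rsl males. Ido1, an enzyme of tryptophan breakdown, had 9.24 and 3.71 against 10.65 and 9.71. Adam7, at 1.15 below the rsl mean, belongs with the latter genes by this measure. Wfdc15b was 0.44 above its rsl mean, less than the 0.53 between its rsl pools. Cwh43, Ly6f and Npy stood 0.90 to 1.76 above theirs, with rsl pools 0.20 to 0.22 apart.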
